A study of Mus musculus with 3 samples.

Results

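Expression of 32 genes of cholesterol synthesis, sensing, export and transport was examined in effector memory CD4 T cells, the antigen-experienced helper T cells that patrol tissues. The genes were chosen by name as a pathway list and matched by symbol to 55536 annotated genes. All 32 were found. They comprise 7 genes of the mevalonate steps, 11 of the squalene and sterol steps, 5 of SREBP control, 5 of LXR signalling and efflux, and 4 of storage and intracellular transport. The cells were primary cells of 1 male BoyJ mouse (B6.SJL-Ptprca Pepcb/BoyJ) aged 5 months, with no treatment named in the labels, and they formed 1 group. The labels give 1 biosample and number its 3 polyA RNA libraries as technical replicates 1, 2 and 3. No condition or animal could therefore be compared, each SD is a spread between libraries of 1 biosample, and each p-value sets a difference between libraries against counting error alone.

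Cells build cholesterol from acetyl-CoA through mevalonate, farnesyl diphosphate, squalene and lanosterol. When sterol in the endoplasmic reticulum is low, SCAP carries the SREBP transcription factors to the Golgi, where they are cut and released to the nucleus to induce these enzymes; INSIG proteins hold SCAP back when sterol is plentiful. Oxysterols activate the LXR nuclear receptors, which induce sterol exporters, and T cells raise synthesis when they are activated to divide.

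The 3 libraries held 17474991, 15303615 and 16882311 rounded expected counts on annotated genes. All 10 marker genes of alpha-beta CD4 T cells were detected, which here means a TPM (the deposited length-corrected level) of at least 1 in every library, with a median mean TPM of 659. Of 10 monocyte and macrophage markers only Cd68 was detected, and summed TPM over that list ranged from 7.68 to 10.03. No B cell marker of 6 and no erythroid or platelet marker of 6 was detected, and Cd8a stood at 0, 0.08 and 0.05 TPM. Of the remaining markers, Zbtb46 of 6 dendritic cell genes, Epcam of 6 genes of stroma, endothelium and epithelium, and Cd8b1 of 2 CD8 genes were detected. Library 1 stood apart. Counts differed between libraries 1 and 2 for 73.5% of tested genes, between libraries 1 and 3 for 74.6%, and between libraries 2 and 3 for 16.7%, by a chi-square test with an adjusted p below 0.05. Results below are therefore given by library.

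The pathway was expressed nearly in full. Of the 32 genes, 30 were detected, against 21.1% of all annotated genes and 44.9% of protein-coding genes. The exceptions were Nr1h3, which encodes LXR alpha, and Abca1, the exporter that loads cholesterol onto apolipoprotein. The median mean TPM over the 32 genes was 34.9, beside 24.1 over the 11694 detected genes. Of the detected genes of the pathway, 10 lay above the upper quartile of detected genes (65.2 TPM) and 2 below the lower quartile (7.81 TPM). In these bulk samples, fewer cells of a type and less RNA per cell cannot be told apart.

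**Figure D1:**
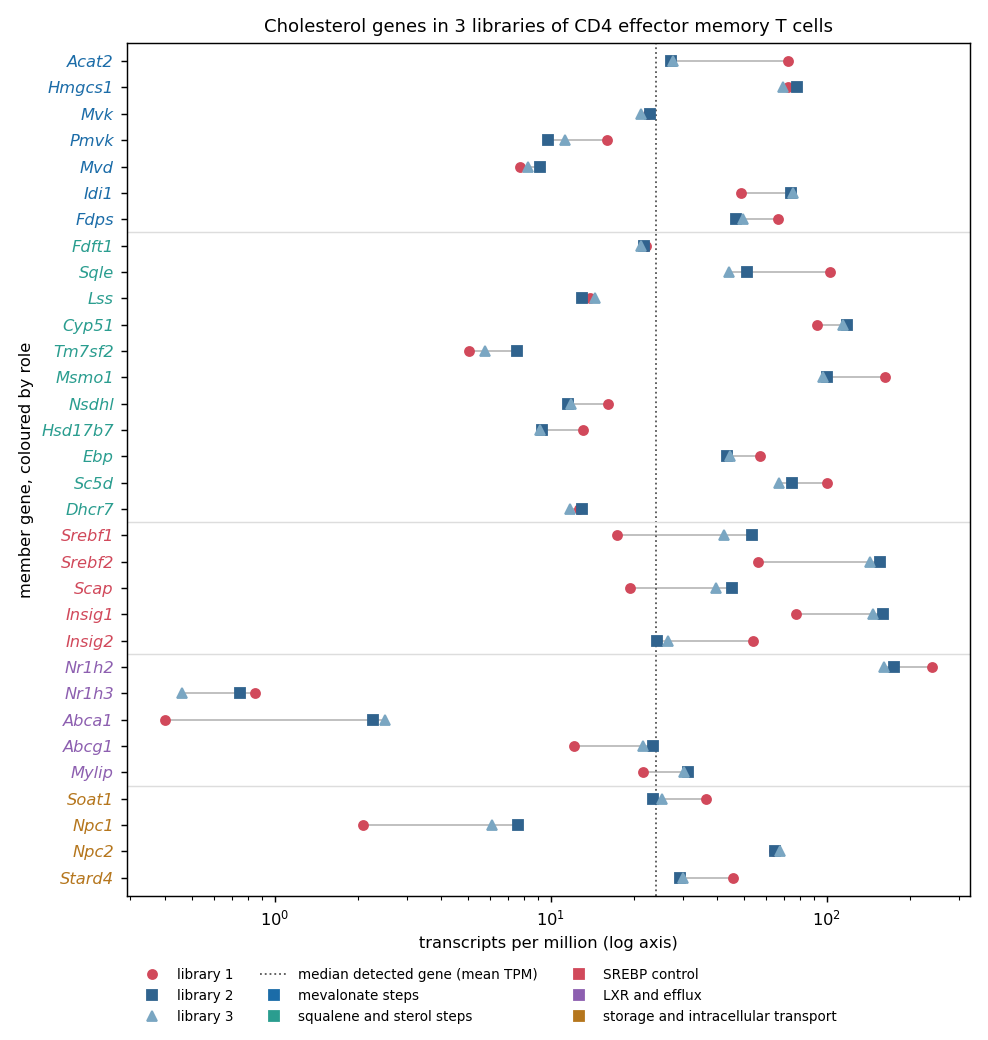
TPM of each of the 32 genes on a log axis, 1 symbol per library, with genes grouped and coloured by role, a grey line over the range of the 3 libraries, and a dotted line at 24.1, the median mean TPM of detected genes. Libraries 2 and 3 lie close together for most genes, and the points of library 1 lie to the left for 4 of the 5 SREBP control genes.

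All 7 genes of the mevalonate steps were detected, with mean TPM from 8.38 to 73.1. Hmgcs1, the cytosolic synthase that builds the precursor of mevalonate, was the highest, at 72.1, 78.1 and 69.1 TPM in libraries 1, 2 and 3 (73.1 ± 4.58, SD, n = 3). Its libraries overlapped closely, and its counts did not pass the test over libraries (chi-square adjusted p = 0.0674). Mvd, which decarboxylates mevalonate diphosphate, was the lowest, at 7.74, 9.13 and 8.28 TPM. Mvk, which phosphorylates mevalonate, had a mean TPM of 22.1, and Pmvk, which adds the next phosphate, had 12.3. Idi1, the isopentenyl diphosphate isomerase, averaged 66.0 and was at 48.8 TPM in library 1, below 73.8 and 75.5 in the other libraries. Fdps, which makes farnesyl diphosphate, averaged 54.3 TPM. Acat2, the cytosolic thiolase that condenses acetyl-CoA, stood at 72.2, 27.3 and 27.8 TPM. Library 1 was the high one, and the other libraries were nearly equal.

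All 11 genes of the squalene and sterol steps were detected, with mean TPM from 6.12 to 120. Msmo1, the methylsterol oxidase that starts removal of the methyl groups at carbon 4, was the highest, at 163, 100.5 and 96.7 TPM. Cyp51, the lanosterol demethylase, followed at 92.4, 118 and 115 TPM. Sqle, the epoxidase that adds oxygen to squalene, had 102, 51.3 and 44.2 TPM, again with library 1 above the others. Sc5d, a sterol desaturase near the end of the route, averaged 80.8 ± 17.3 TPM (SD, n = 3), and Ebp, a sterol isomerase, averaged 48.5 ± 7.71. The low genes of this set were Fdft1 (squalene synthase, mean TPM 21.7), Lss (lanosterol synthase, 13.7), Nsdhl (sterol dehydrogenase, 13.2), Dhcr7 (the reductase that acts on 7-dehydrocholesterol, 12.4) and Hsd17b7 (ketosterol reductase, 10.5). Tm7sf2, a sterol reductase, was the lowest, at 5.07, 7.53 and 5.76 TPM. Lbr, a nuclear envelope protein that also has sterol reductase activity and is not among the 32, was at 319, 277 and 236 TPM.

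The set of 5 control genes comprises the sterol sensor and its transcription factors, and all were detected. Insig1 was the highest, at 77.1, 159.5 and 146 TPM. Insig2, its paralog, was at 54.1, 24.3 and 26.5 TPM, so that library 1 was lowest for Insig1 and highest for Insig2. Srebf2, the SREBP gene chiefly tied to cholesterol synthesis, had 56.2, 156 and 143 TPM. Srebf1, the SREBP gene chiefly tied to fatty acid synthesis, had 17.4, 53.4 and 42.3 TPM. Scap, which escorts both, had 19.4, 45.4 and 39.8 TPM. For these last 3 genes library 1 was the lowest, without overlap with the others.

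Among the LXR and efflux genes the receptors were far apart. Nr1h2, which encodes LXR beta, was the highest of all 32 genes, at 240, 175 and 161 TPM. Nr1h3 was listed at 0.85, 0.75 and 0.46 TPM and had 8, 8 and 6 expected counts, too few for the test. Abca1 was at 0.40, 2.26 and 2.51 TPM, below the detection level in library 1 only. Abcg1, which exports cholesterol to mature lipoprotein particles, had 12.1, 23.5 and 21.6 TPM. Mylip, a ubiquitin ligase induced by LXR that removes lipoprotein receptors, had 21.5, 31.5 and 30.4 TPM.

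Of the storage and transport genes, Npc2, the soluble lysosomal sterol carrier, was the highest and steadiest, at 64.4, 64.9 and 67.5 TPM. Its membrane partner Npc1 was the lowest, at 2.09, 7.57 and 6.10 TPM. Soat1, the enzyme that esterifies cholesterol for storage, averaged 28.4 ± 7.00 TPM (SD, n = 3), and Stard4, a cytosolic sterol carrier, averaged 35.1 ± 9.33. Npc1 was low in every library.

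Ordered by mean TPM, the 5 highest genes were Nr1h2 at 192, Insig1 at 128, Msmo1 at 120, Srebf2 at 119 and Cyp51 at 108. The order among neighbours was mostly unresolved. Of 31 neighbouring pairs in the order, 3 had library ranges that did not overlap, and these were Nr1h2 above Insig1, Hsd17b7 above Mvd, and Mvd above Tm7sf2. Only 7 pairs stood in the same order in every library. Srebf2 and Insig1 ranked above Msmo1 in libraries 2 and 3, and Msmo1 ranked above both in library 1.

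Promoter sequence was examined because SREBP is known to act at a sterol response element (SRE) together with the CCAAT-binding factor NF-Y and with Sp1, which binds GC boxes. RefSeq promoter windows on GRCm38.p6, from 250 bases before to 50 bases after a transcription start, were matched by symbol for 26 of the 32 genes. Abcg1, Fdft1, Fdps, Npc1, Sqle and Stard4 had no entry. Each motif was searched on both strands. The NF-Y box CCAAT was in a window of 21 of the 26 genes and of 14 of the 15 enzyme genes with a window, and in 37.4% of all 32851 windows. The GC box GGGCGG was in a window of 23 of the 26 genes and 14 of the 15 enzyme genes, and in 35.7% of all windows. A gene with several windows counted once if any held the motif, so these gene counts and the shares of windows have different denominators. Counted by window, the NF-Y box was in 22 and the GC box in 27 of the 35 windows of these genes. The E-box CACGTG was found for 6 genes (7.15% of all windows). An SRE core written as TCACNCCAC was found for 1 gene, Hmgcs1, and in 1.24% of all windows. Only exact matches to these letters were counted, so an SRE with other letters or outside the windows was not looked for. These matches describe letters in the windows and no binding was measured.

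Stretches upstream of both the RefSeq and the GENCODE start are shown for 5 genes, 5′ to 3′ on the gene's strand, with the SRE core and each NF-Y box (CCAAT or its reverse complement ATTGG) in capitals. Hmgcs1 (chr13:119690101-119690350, plus strand) is shown for its SRE core, which begins 137 bases before the RefSeq start. The stretch also holds 3 NF-Y boxes, which begin 237, 176 and 45 bases before that start. Another NF-Y box of the Hmgcs1 window begins 10 bases after the start and lies outside the stretch. Ebp (chrX:8193513-8193762, minus strand) has NF-Y boxes 170 and 55 bases before the start, and Sc5d (chr9:42264301-42264550, minus strand) has 1, 24 bases before it. Insig1 (chr5:28071162-28071362, plus strand) has 1 NF-Y box, 216 bases before the start. Acat2 (chr17:12960748-12960975, minus strand) was the only enzyme gene whose window held no NF-Y box. None of these stretches overlapped an annotated GENCODE exon.
Hmgcs1: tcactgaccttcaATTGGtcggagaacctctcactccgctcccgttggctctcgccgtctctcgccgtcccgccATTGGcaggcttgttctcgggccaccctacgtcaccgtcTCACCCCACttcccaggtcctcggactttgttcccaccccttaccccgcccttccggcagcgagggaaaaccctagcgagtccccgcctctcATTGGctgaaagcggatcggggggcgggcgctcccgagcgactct
Ebp: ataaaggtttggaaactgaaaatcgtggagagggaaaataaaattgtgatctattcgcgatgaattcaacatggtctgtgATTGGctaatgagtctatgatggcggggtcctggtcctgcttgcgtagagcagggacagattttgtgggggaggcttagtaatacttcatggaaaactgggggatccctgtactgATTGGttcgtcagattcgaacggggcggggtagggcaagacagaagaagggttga
Sc5d: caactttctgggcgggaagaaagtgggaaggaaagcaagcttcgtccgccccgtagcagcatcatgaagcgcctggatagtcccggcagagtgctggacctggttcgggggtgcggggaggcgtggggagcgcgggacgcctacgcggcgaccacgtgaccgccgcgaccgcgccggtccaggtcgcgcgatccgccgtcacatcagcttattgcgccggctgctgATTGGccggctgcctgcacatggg
Insig1: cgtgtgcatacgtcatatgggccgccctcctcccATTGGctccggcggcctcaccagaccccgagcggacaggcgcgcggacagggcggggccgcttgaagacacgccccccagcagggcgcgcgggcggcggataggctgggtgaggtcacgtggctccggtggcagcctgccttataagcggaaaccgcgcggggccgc
Acat2: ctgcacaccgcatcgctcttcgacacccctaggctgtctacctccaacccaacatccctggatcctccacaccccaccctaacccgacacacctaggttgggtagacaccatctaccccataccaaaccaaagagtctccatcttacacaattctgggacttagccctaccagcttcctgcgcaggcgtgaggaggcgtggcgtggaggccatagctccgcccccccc

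Differences between the libraries were then tested gene by gene on CPM, each gene's counts scaled to the library's total. Of 31 genes of the pathway with at least 30 counts, 21 varied over the 3 libraries, beside 75.8% of all 13177 genes tested. The split fell between library 1 and the rest. Counts of 22 of the 31 genes differed between libraries 1 and 2, of 22 between libraries 1 and 3, and of 2 between libraries 2 and 3, beside the 73.5%, 74.6% and 16.7% of all tested genes given above. The 2 genes that differed between libraries 2 and 3 were Scap, at 95.5 and 85.0 CPM (chi-square adjusted p = 0.0148), and Cyp51, at 207 and 193 CPM (chi-square adjusted p = 0.0410). Between these libraries the other 29 tested genes did not pass.

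In library 1, 6 genes were called and at least 1.5-fold higher than the geometric mean of libraries 2 and 3, beside 18.4% of all tested genes. By the same rule 6 were lower, beside 28% of all tested genes. The higher genes were Acat2, Sqle, Insig2, Msmo1, Nr1h2 and Soat1. The lower genes were Abca1, Npc1, Srebf2, Scap, Insig1 and Srebf1. The median log2 ratio of library 1 was 0.02 over the 31 genes and -0.10 over all tested genes.

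By role, ratios of the enzyme genes lay on both sides of 0, 11 above and 7 below, and those of the control genes lay 1 above and 4 below. Of 18 enzyme genes of synthesis, 10 varied, 3 were higher in library 1 and 0 lower by 1.5-fold. Over all tested genes these shares were 75.8%, 18.4% and 28%. The median log2 CPM ratio of the enzyme genes was 0.14. Of the 5 SREBP control genes all varied, 1 was higher and 4 lower, beside the same shares. Their median log2 CPM ratio was -0.92. Summed TPM of the 18 enzyme genes was 904, 732 and 704 in libraries 1, 2 and 3, with library 1 the highest. Msmo1, Sqle and Acat2, the 3 called higher, gave 163, 102 and 72.2 TPM of that sum in library 1. In library 2 they gave 100.5, 51.3 and 27.3 TPM, so the sum does not describe a rise of every enzyme gene. Summed TPM of the 5 control genes was 224, 439 and 399, with library 1 the lowest. The difference between the roles was not tested, and the roles also differed in median transcript length, as given below.

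**Figure D2:**
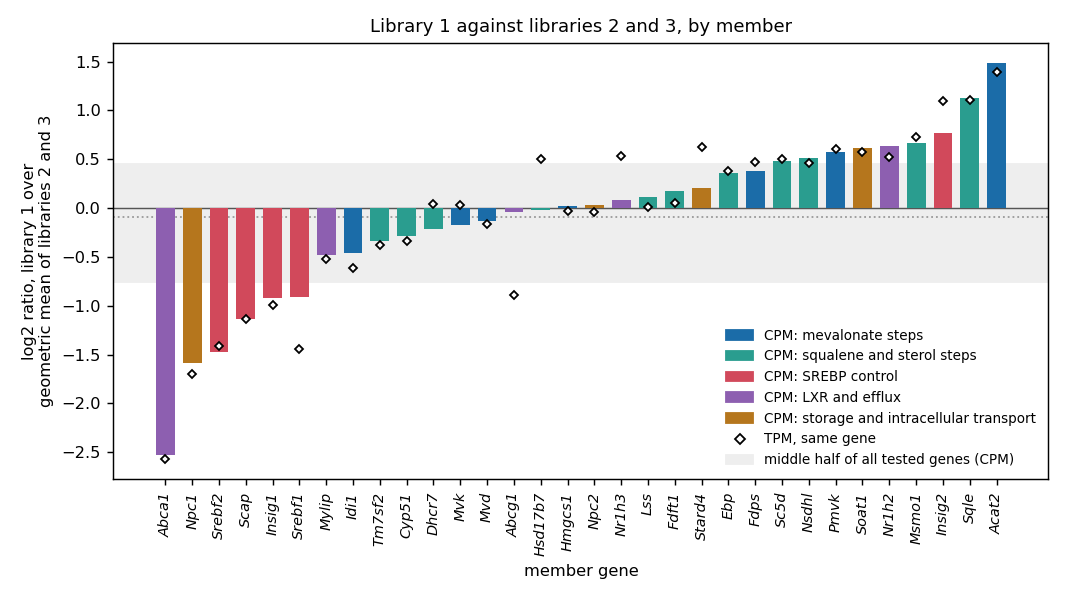
Bars give the log2 ratio of CPM in library 1 over the geometric mean of libraries 2 and 3 for each of the 32 genes, coloured by role, and diamonds the same ratio from TPM. The grey band is the interquartile range of all tested genes (-0.75 to 0.45) around their median of -0.10. Nr1h3 is drawn but had too few counts for the test. The bars of Abca1, Npc1, Srebf2, Scap, Insig1 and Srebf1 reach below the band. Those of Acat2, Sqle, Insig2, Msmo1, Nr1h2, Soat1, Pmvk, Nsdhl and Sc5d reach above it.

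Srebf2 (chromosome 15, 82147181 to 82205379 in GRCm38) had 107, 301 and 293 CPM in libraries 1, 2 and 3. Library 1 was lower by 2.77-fold, a log2 ratio of -1.47. Insig1 (chromosome 5, 28071363 to 28078662) had 110, 211 and 205 CPM, a log2 ratio of -0.92 (chi-square adjusted p = 6.88e-137). Scap (chromosome 9, 110333288 to 110384950) had 40.9 CPM in library 1, a log2 ratio of -1.14 against the values for libraries 2 and 3 above (chi-square adjusted p = 4.37e-84). Srebf1 (chromosome 11, 60199089 to 60222581) had 38.9, 76.8 and 69.4 CPM, a log2 ratio of -0.91 (chi-square adjusted p = 3.55e-48). In all 4 genes library 1 lay below both other libraries. Insig2 (chromosome 1, 121304353 to 121332589) went the other way, with 43.8, 27.1 and 24.3 CPM and a log2 ratio of 0.77 (chi-square adjusted p = 5.43e-26).

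Acat2 (chromosome 17, 12942890 to 12960747) had the highest ratio among the 31 tested genes, with 92.2, 32.5 and 33.1 CPM and library 1 higher by 2.81-fold (log2 ratio 1.49, chi-square adjusted p = 7.53e-161). Its close paralog Acat3, on the same chromosome (12923813 to 12940600), can share its reads. Acat3 was listed at 0.82, 0.45 and 0.53 TPM, and the sum of both genes was 73.0, 27.8 and 28.3 TPM, so that the sum showed the same order as Acat2 alone. Sqle (chromosome 15, 59315077 to 59331192) had 171, 81.7 and 74.5 CPM, 2.19-fold higher in library 1 (log2 ratio 1.13, chi-square adjusted p = 3.38e-192). Msmo1 had 175, 110 and 111 CPM, and its log2 ratio was 0.67. On CPM the other enzyme genes stayed within 1.5-fold, from -0.46 for Idi1 to 0.58 for Pmvk on the log2 scale.

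Outside synthesis, Nr1h2 (chromosome 7, 44549616 to 44553951) had 254, 166 and 161 CPM, a log2 ratio of 0.63 (chi-square adjusted p = 1.45e-102). Soat1 had 60.2, 39.6 and 39.1 CPM, a log2 ratio of 0.61. In both, library 1 lay above the others and libraries 2 and 3 were close. Abca1 (chromosome 4, 53030787 to 53159895) had 44, 205 and 266 expected counts, a log2 CPM ratio of -2.53 (chi-square adjusted p = 7.85e-36). Npc1 (chromosome 18, 12189692 to 12236400) had 77.4, 190 and 237 expected counts, a log2 CPM ratio of -1.58 (chi-square adjusted p = 1.06e-19). Both were low in every library and lowest in library 1. After the chi-square statistic was divided by the median overdispersion of all tested genes, the calls of Insig2, Soat1, Abca1 and Npc1 were lost, and the other 8 of the 12 genes stayed called.

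Ratios between libraries moved with transcript length. Over 13074 tested genes with a length and a GC content, which share the 3 libraries and their depths, Spearman's rho between the log2 CPM ratio of library 1 and the length of a gene's most-counted transcript was -0.31, and with the GC content of that transcript -0.07. Over the 31 genes of the pathway these values were -0.50 and -0.26. The log2 CPM ratio of library 2 over library 3 also moved with length, with a rho of 0.25 over 13115 tested genes. With all tested genes cut at the quartiles of length, the median log2 ratio was 0.19 in the shortest class (up to 1497 bases), 0.15 in the next, -0.13 in the third, and -0.59 in the longest (above 3872 bases). Of the 6 genes that were lower in library 1, 5 were in that longest class, and Insig1, at 2697 bases, was the exception. Of the 6 genes that were higher, 0 were in it. Their lengths ran from 1839 bases for Nr1h2 to 2925 for Soat1, whereas the lower genes ran from 2697 to 10262 bases for Abca1. Insig1 and Insig2 had most-counted transcripts of the same length, 2697 bases, and opposite ratios. That transcript held 83.1%, 81.3% and 81.4% of the TPM of Insig1 in libraries 1, 2 and 3. For Insig2 it held 32.2%, 59.6% and 42.9%, so the match in length covers that transcript only. The other 5 genes of the longest class were not called lower: Lss, Hsd17b7, Cyp51, Abcg1 and Stard4, with log2 ratios of 0.11, -0.02, -0.29, -0.04 and 0.21. These classes rest on 1 transcript per gene. In library 1 it held 51.6%, 38.9%, 69.9%, 90.2% and 14.6% of the TPM of those genes, in that order. For the lower genes Abca1, Npc1, Srebf2, Scap and Srebf1 it held 100%, 33.0%, 34.8%, 73.7% and 76.2%. By role, the median length of the most-counted transcript was 4227 bases for the 5 control genes and 2209 for the 18 enzyme genes. The part of length in the differences between libraries, or in the difference between these roles, was not tested.

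**Figure D3:**
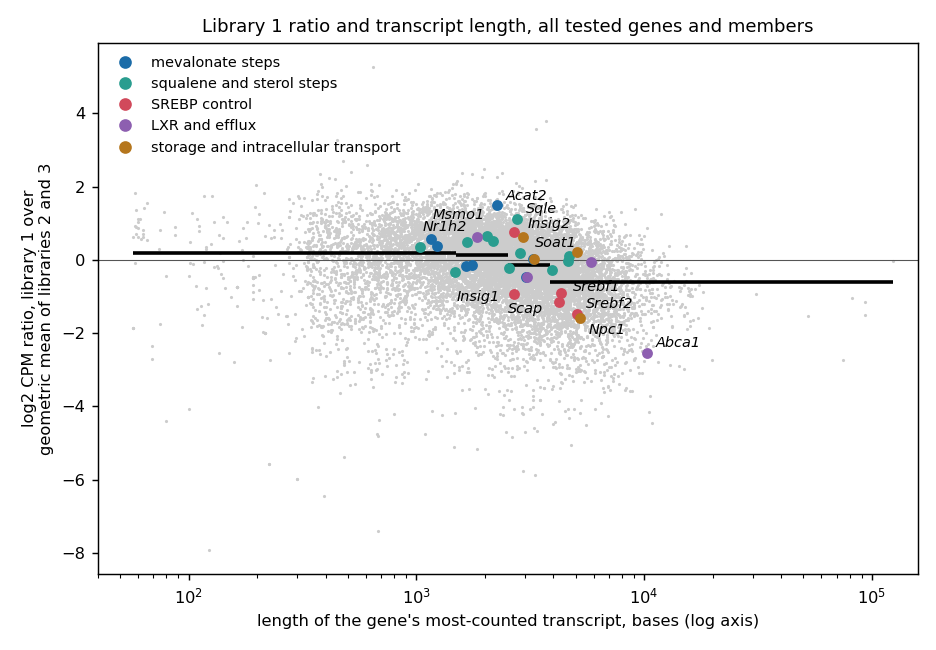
Each grey point is 1 of 13081 tested genes with a length, by the length of its most-counted transcript (log axis, bases) and its log2 CPM ratio of library 1; coloured points are the 31 tested genes of the pathway, with the 12 called higher or lower by name. Black lines mark the median ratio in each length class, which runs from 0.19 to -0.59, and 5 of the 6 lower genes sit over the longest class.

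Transcript tables split the genes into 203 annotated transcripts, and all 32 genes had more than 1. For 25 of the 32 genes the transcript with the highest mean share of the gene's TPM led in every library, and for 22 that share was over 50%. Nsdhl, Mylip and Abca1 were nearly single-transcript genes, with mean shares of 99.6%, 100% and 100% for Nsdhl-201, Mylip-201 and Abca1-201. Insig1 was stable too. Its transcript Insig1-201 held 83.1%, 81.3% and 81.4% in libraries 1, 2 and 3, so the lower level of the gene in library 1 was not accompanied by a change of its leading transcript.

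The SREBP genes gave different transcript shares in library 1 and in the others. Srebf1-201, a protein-coding transcript of 4299 bases, held 76.2% of Srebf1 in library 1 and 40.8% and 47.4% in the others. For Srebf2 the transcript with the highest mean share was Srebf2-205, annotated as a retained intron, with 52.4%, 27.1% and 29.1%. The protein-coding Srebf2-203 was listed at 0% in library 1 and at 26.9% and 17.5% in the others, and Srebf2-201, a protein-coding transcript of 5077 bases, at 34.8%, 25.9% and 32.6%, which made it the leading one in library 3. These shares are estimates from short reads over overlapping transcripts, given per unit length, so a short transcript can hold a large share with few reads.

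**Figure D4:**
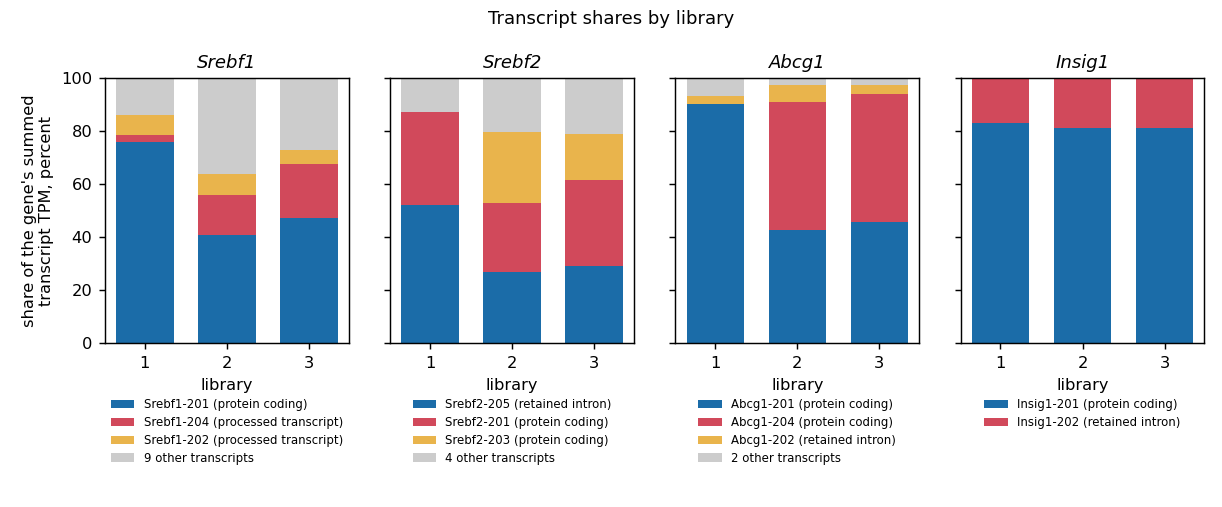
Stacked bars give the percent of each gene's summed transcript TPM held by its 3 highest transcripts and by the others, for Srebf1, Srebf2, Abcg1 and Insig1 in libraries 1, 2 and 3. Insig1 keeps 83.1%, 81.3% and 81.4% in Insig1-201, whereas Abcg1-204 is listed at 0% in library 1 and near 48% in the others.

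Abcg1 (chromosome 17, 31057675 to 31117988) gave a different answer on each scale. Its CPM was 39.8, 40.6 and 41.5, and the counts did not vary (chi-square adjusted p = 0.762, log2 ratio -0.04). Its TPM was lower in library 1, with a log2 ratio of -0.89. Abcg1-201, of 5832 bases, held 90.2%, 42.7% and 45.8% of the gene, and Abcg1-204, of 912 bases, held 0%, 48.2% and 48.4%. The separate whole-number counts on the older GENCODE M4 annotation were 68, 319 and 362 for Abcg1, a log2 CPM ratio of -2.30. Those counts were 9.77% of the M21 count in library 1 and 51.3% in library 2. The median over the pathway genes, each averaged over the 3 libraries, was 48.4%. The level of Abcg1 in library 1 relative to the others is therefore uncertain. Idi1 also differed between tables, with 14, 23 and 39 counts on M4 against 1492, 1764 and 2016 on M21. The log2 ratio of library 1 shifted from CPM to TPM for other genes too. It was -0.02 and 0.51 for Hsd17b7, 0.21 and 0.63 for Stard4, and -0.91 and -1.45 for Srebf1.

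Some genes share exonic positions with a neighbour, and the sources used here do not say whether reads were assigned by strand, so their values are uncertain. Cyp51 overlaps Akap9 on the opposite strand (242, 102 and 94.3 TPM), Fdft1 overlaps Ctsb (486, 275 and 254 TPM), Npc1 overlaps Rmc1 (109, 79.8 and 68.0 TPM) and Srebf1 overlaps Rai1 (mean TPM 9.54). Tm7sf2 overlaps Vps51 on the same strand (62.1, 73.2 and 53.8 TPM).

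The wider pathway was described from 65 further genes in 4 lists, of which 57 were detected. All 17 genes of SREBP processing and of sterol-regulated protein degradation were detected. The highest were Aup1, a lipid droplet protein that recruits a ubiquitin conjugase, at 474, 355 and 327 TPM, and Sar1a, a small GTPase of COPII vesicles, at 288, 254 and 242 TPM. Of these 17 genes 16 varied, 3 were higher and 4 lower in library 1, beside 75.8%, 18.4% and 28% of all tested genes. Mbtps1, the first protease to cut SREBP, was among the lower, at 33.5, 73.5 and 61.2 TPM, and Mbtps2, the second protease, had 10.2, 14.5 and 13.3 TPM with a log2 CPM ratio of -0.29. The lower genes also held Sec24a, Sec24b and Sec24c, cargo adaptors of COPII vesicles. Sec23a, of the same list, was among the 3 higher, with a log2 CPM ratio of 0.70. Over the 17 genes, 10 ratios of library 1 lay above 0 and 7 below, with a median log2 CPM ratio of 0.20.

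All 13 genes of a list of isoprenoid branches were detected. The list holds enzymes that make or attach isoprenoid chains and also Lbr and the mitochondrial thiolase Acat1, which do neither. Of the 13 genes 10 varied, 4 were higher and 1 lower in library 1, beside 75.8%, 18.4% and 28% of all tested genes. Lbr was the highest, and Ggps1, the geranylgeranyl diphosphate synthase, followed at 143, 73.9 and 76.1 TPM. Of 23 other transport and storage genes 20 were detected, and of 21 tested 16 varied, 3 higher and 7 lower in library 1, beside those same shares of all tested genes. Gramd1a, a sterol carrier at membrane contacts, led them at 294, 359 and 319 TPM, followed by Osbpl9 at 110, 124 and 119 TPM. The genes not detected were Vldlr and Lrp1, lipoprotein receptors, and Abcg4, a transporter related to Abcg1.

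Of 12 oxysterol genes and LXR partners 7 were detected, and of 7 tested 6 varied, 1 higher and 4 lower in library 1, beside the same shares. Ncor1, a corepressor of nuclear receptors, was the highest, at 779, 301 and 303 TPM, and Smpdl3a followed at 137, 117 and 112 TPM. The genes of oxysterol formation were not detected: Ch25h, Cyp27a1, Cyp46a1 and Cyp7b1 (which acts on oxysterols) each stayed under 1 TPM, as did Rxrg. Cyp7b1 and Rxrg were listed at 0 in every library. Rxrb, an LXR partner, was at 37.4, 80.1 and 68.4 TPM, and Rxra at 1.71, 5.21 and 7.10 TPM.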

How the data were processed

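The members and the gene lists were chosen with earlier results of these data known. RNA was measured by polyA RNA-seq in 3 libraries of 1 biosample. Per the file headers and the notes deposited with each library, the tables are on mm10, with GENCODE M21 and M4 annotation; the aligner, the quantifier and any use of strand are not given in the sources used. The expected counts (estimated counts that share ambiguous reads), TPM, FPKM and the percent of a gene's expression per transcript were made by the authors and are scaled within each library. The M4 tables were deposited as whole-number counts. They held 5104745 counts in library 1, against 17474991 rounded expected counts on M21. How M4 reads were counted is not given, so the 2 sets may differ by more than annotation.

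Expected counts were rounded to whole numbers. Rows with numeric identifiers and 97 spike-in rows, at most 0.304% of counts, were left out. Genes with at least 30 counts in all were tested for homogeneity over libraries with Pearson's chi-square test (gene against all other counts), with Benjamini-Hochberg adjusted p below 0.05 over all tested genes. No quasi-likelihood test was run, since there is 1 group. CPM was a gene's count scaled to the library's rounded expected counts on annotated genes. edgeR 4.0.16 (TMM) and DESeq2 1.42.0 (size factors) supplied alternative scalings of the counts. Transcript shares were recomputed from transcript TPM. All 32 genes were named by role, with values per library for the highest and lowest of each role, for genes 1.5-fold apart in library 1 and for those that differed between libraries 2 and 3; of the other lists the 2 highest and the undetected genes were named, and further genes were chosen after their values were seen. The chi-square step was tested on simulated counts that held counting error only. The median overdispersion of all tested genes was 19.9, and the simulation did not cover this extra spread. Python 3.11.15, scipy 1.17.1, pandas 2.3.3 and R 4.3.3 were used. The p-values cover counting error only, and the tables name no molecular identifiers.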

Additional observations from a re-analysis of the deposited data

How the results depend on the processing

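The number of detected genes ranged from 29 to 31 over the detection levels, rescaling and libraries left out. Of 21 varying genes, 8 remained called after the chi-square statistic was divided by the overdispersion that brings its median over all genes to that of counting error, beside 21.6% of all tested genes. Leaving out 1 library gave 2 to 22 varying genes, and the 2 is the count without library 1. Between libraries 2 and 3, TMM sizes left 1 gene called in place of 2. At 2-fold, 2 genes were higher in library 1 (Acat2 and Sqle) and 4 lower. DESeq2 size factors gave 9 higher and 6 lower, and TPM gave 6 and 7. The sets on TPM were not the same: Nr1h2 and Soat1 left the higher genes, Pmvk and Stard4 entered, and Idi1 joined the lower genes. The median log2 ratio of all tested genes was -0.10 on CPM, -0.04 with TMM and 0.06 with DESeq2, so small ratios of either sign depend on the scaling. With TMM or DESeq2 sizes Hmgcs1, Fdft1, Lss and Npc2 passed as well, and on M4 counts Fdft1, Lss and Abcg1 did, whereas Cyp51 did not. No called gene of the 31 changed the sign of its library 1 ratio under the scalings, M4 counts or libraries left out that were tried. The 5 highest genes were the same under FPKM and with any 1 library left out. With 1 library left out, the transcript with the highest mean share led in every remaining library for 25 to 28 genes. No paired analysis was possible because there is 1 group of libraries. With 1 biosample, the spread between animals was not measured.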
